A study of Mus musculus with 12 samples.

Results

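The genes described here are 32 markers of the contractile, vascular and connective tissue cells of the mouse testis, followed from 3 to 18 months of age. They are 11 genes of peritubular myoid and other smooth muscle cells (Acta2, Myh11, Cnn1, Tagln, Des, Actg2, Myl9, Mylk, Lmod1, Tpm1 and Tpm2), 12 genes of endothelium (Pecam1, Cdh5, Kdr, Flt1, Tek, Tie1, Vwf, Emcn, Eng, Esam, Cldn5 and Egfl7), 4 genes of the mural cells that wrap small vessels (Pdgfrb, Rgs5, Cspg4 and Mcam) and 5 genes of the interstitial stroma (Pdgfra, Dcn, Lum, Tcf21 and Cd34). Members were found by gene symbol among 24516 named genes, and their reads were summed over transcripts that match a RefSeq transcript, lie inside one, share a splice junction with one or otherwise overlap its exons. That kept 84 transcripts, 64 of them RefSeq transcripts and 20 assembled from the reads, and left out 4. All 32 genes passed the filter on low counts.

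Whole testes came from male C57BL/6 mice, an inbred strain, with no transgene or treatment in any group. There were 3 mice at each of postnatal months 3 (3M), 6 (6M), 12 (12M) and 18 (18M), and 1 library per mouse. The study could not tell whether mice of an age were littermates. Total RNA, not purified cells, was sequenced after removal of ribosomal RNA, so fewer cells of a type and less RNA per cell cannot be told apart in any value below.

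Peritubular myoid cells are flat, smooth-muscle-like cells that surround each seminiferous tubule, and their contraction moves sperm toward the rete testis. They share most of their contractile genes with the smooth muscle of arteries, so a whole-organ library adds both cell types together. Outside the tubules, capillaries lined by endothelium and supported by mural cells run among the Leydig cells, and a loose stroma of fibroblast-like cells fills the remaining space.

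The 12 libraries held 50924104 to 71803379 estimated reads, and the members took 0.0529% to 0.0602% of them. Summed over all libraries the members had 387167 reads, from 368 for Emcn to 177591 for Actg2, which alone accounted for 45.9%. The tissue label was checked against marker lists of other cells: summed levels in CPM (read counts scaled to a common library size with the TMM factors of edgeR) were 13468 to 19236 for 7 spermatid genes, 825.7 to 1111.5 for 9 Sertoli cell genes and 550.1 to 1322.5 for 7 Leydig cell genes. Of cells that could come along at dissection, 5 epididymis genes summed to 0.0834 to 0.337 CPM and 6 skeletal muscle genes to 3.51 to 4.69 CPM. The 5 adipocyte genes summed to 8.49 to 12.0 CPM, most of it Adipoq at a mean of 8.75. Red blood cell genes, 4 with counts, summed to 23.8 to 51.0 CPM, of which Alas2 had a mean of 16.5. What fat or blood added to the stromal and endothelial values was not tested.

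Per transcript length, the smooth muscle genes were the highest of the members. Levels in FPKM (fragment counts that the authors scaled by transcript length and library size, summed here over the transcripts of a gene) were 146 ± 7.5 for Actg2, 29.1 ± 3.6 for Myl9 and 14.4 ± 1.5 for Acta2 (mean ± SD, n = 12 libraries). These are γ-smooth muscle actin, the regulatory light chain of smooth muscle myosin and α-smooth muscle actin. Each of these genes was above the next member of the order in all 12 libraries, with no overlap of their ranges, and Actg2 stood 5.02-fold above Myl9. From the fourth place on, neighboring members overlapped. That stretch began with Dcn, a small collagen-binding proteoglycan, at 8.92 ± 1.5 FPKM, and Tpm1, a tropomyosin of the thin filament, at 8.59 ± 1.6 FPKM.

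**Figure D1:**
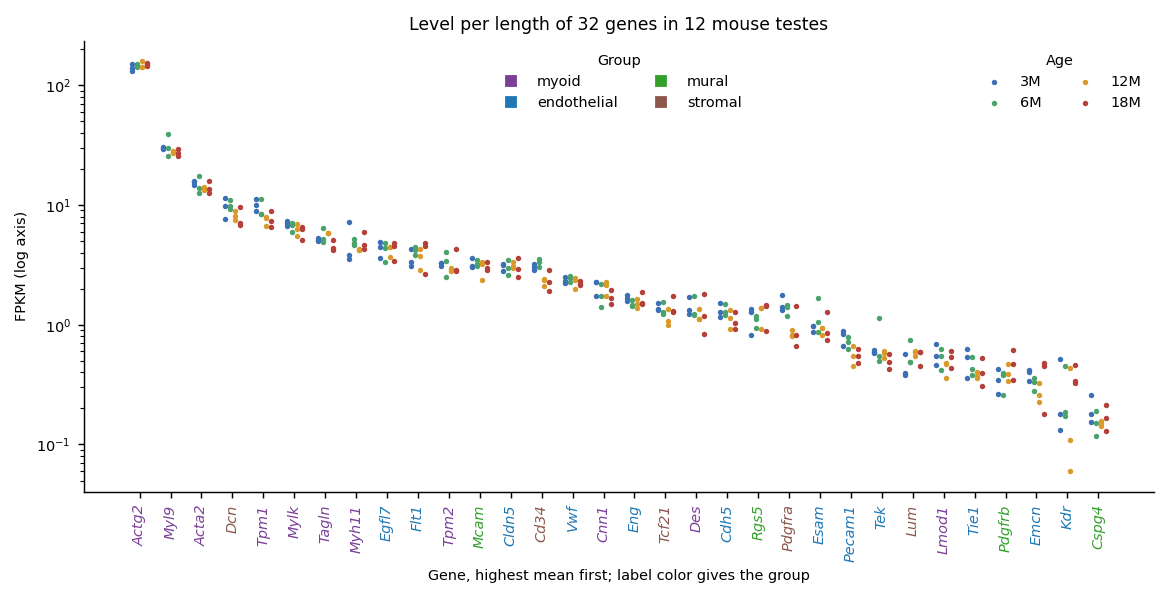
Level of each of the 32 genes (horizontal axis, highest mean first, label color by group) in FPKM on a log axis, with 1 point per mouse colored by age. Actg2, Myl9 and Acta2 stand apart from the rest, while Cspg4 is lowest at a mean of 0.168 FPKM.

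The median over the 11 myoid genes was 5.26 FPKM, against 1.11 for the 12 endothelial, 0.786 for the 4 mural and 1.34 for the 5 stromal genes. Egfl7, a factor that endothelium secretes, was the highest endothelial gene at 4.24 ± 0.57 FPKM. Endothelial genes used as defining markers were lower, with Cdh5 (VE-cadherin, which holds endothelial junctions together) at 1.21 ± 0.19 FPKM and Pecam1 (an adhesion molecule of the same junctions) at 0.652 ± 0.14 FPKM. Kdr, the main signaling receptor for VEGF-A, was at 0.281 ± 0.16 FPKM, and 9 members had a mean under 1 FPKM. No member was at 0 in any library.

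Short reads can be shared between near-identical genes, so the coding sequences of both smooth muscle actins were set side by side. Of 1128 aligned coding bases of Acta2 (chr19:34240336-34255373, minus strand) and Actg2 (chr6:83512909-83536251, minus strand, both mm10 and as the files give them), 84.4% were identical, and the longest identical run was 29 bases. The last 120 coding bases, from GENCODE release M21, are shown because this end of the mRNA is covered by reads in both genes. Capitals mark the 19 bases at which the genes differ.
Acta2, coding bases 1012 to 1131: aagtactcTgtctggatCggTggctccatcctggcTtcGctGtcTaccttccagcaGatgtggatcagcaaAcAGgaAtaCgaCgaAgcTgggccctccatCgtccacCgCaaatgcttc
Actg2, coding bases 1009 to 1128: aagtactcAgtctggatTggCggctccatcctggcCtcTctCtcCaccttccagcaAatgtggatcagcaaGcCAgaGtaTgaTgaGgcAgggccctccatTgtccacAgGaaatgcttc

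Actg2 reads did not begin where the RefSeq transcript does. The mean read depth (reads over each base, as the assembler gives it per exon, summed over the transcripts of the gene) was 1.95 on the RefSeq first exon and 1179 on exons 2 to 9. It was 0.542 to 4.30 on the first exon and 1035 to 1630 on the rest across the 12 libraries. The first exon reached 0.177% of the depth of the second, a share under which only 2.06% of 13495 genes fell, while the median gene had 42.5%.

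An assembled exon of Actg2 outside the RefSeq exons, at chr6:83527661-83527760 (mm10, minus strand), carried a depth of 253. Its depth was between 221 and 321 in every library. The 2 assembled transcripts of Actg2 start upstream of this exon, at positions 83531138 and 83528967, so it was the first exon of neither. GENCODE puts the first coding base of Actg2 in exon 2, at position 83527441, which is downstream of that assembled exon. Of the reads of Actg2, 96.6% were assigned to 2 assembled transcripts, with a range of 93.0% to 98.9% over libraries. γ-Smooth muscle actin mRNA is known from haploid germ cells of the mouse testis as well as from smooth muscle. Which cells gave these reads was not tested, and sums of the myoid genes are given with and without Actg2 below.

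Acta2 had a depth of 12.7 on its RefSeq first exon, 136 on exons 2 to 8 and 29.7 on its last exon. In addition, 4 assembled exons upstream of the RefSeq start had a mean depth of 11.1. Between 11.5% and 79.9% of the reads of Acta2 went to the assembled transcript in a single library, while the total of the gene lay between 27.0 and 39.5 CPM.

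Mylk, the kinase that phosphorylates the regulatory light chain to start contraction, was at a depth of 0.234 on its RefSeq first exon and listed at 0 there in 9 of 12 libraries. Exons 2 to 28 had 25.7 and exons 30 to 32 had 70.9. The end of this gene is also the telokin transcript, a short non-kinase product of smooth muscle. Myh11, the smooth muscle myosin heavy chain, had 7.80 over exons 1 to 24 and 29.9 over exons 25 to 41, and Tpm2, the other tropomyosin, had 36.9 over exons 1 to 8 and 4.46 on its last exon.

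Several endothelial genes were covered over only part of their RefSeq transcript. The genes described for this reason, Vwf, Tek, Flt1 and Kdr, were chosen after their coverage was seen. Vwf, the multimeric glycoprotein that binds platelets, had a depth of 0.819 on exons 1 to 6 and 15.1 on exons 7 to 52, and its 12 libraries lay between 0.00550 and 2.15 on the former and between 13.2 and 17.8 on the latter. An assembled transcript starting at chr6:125585793 (mm10, plus strand) took 96.9% of its reads.

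Tek, the angiopoietin receptor, showed a depth of 0.856 on exons 1 to 12 against 5.66 on exons 13 to 23. Flt1, a VEGF receptor that also acts as a trap for the ligand, had 1.48 on exons 1 to 7, 10.6 on exons 8 to 13, 4.13 on exons 14 to 28 and 26.1 on exon 29. These steps were present in all 12 libraries for both genes.

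For Kdr the difference was between libraries. Its last exon was listed at 0 in 6 libraries (3M mice 1 and 2, 6M mice 2 and 3, 12M mice 1 and 2) and at 4.85 to 8.91 in the other 6, while exons 1 to 29 had 0.509 to 1.47 in all of them. The same 6 libraries were the 6 lowest for the gene, with 0.356 to 1.11 CPM against 1.91 to 3.01 CPM in the others. All 3 libraries of 18M mice were in the group with the exon covered. Kdr had a biological coefficient of variation of 0.573, the highest of the members, whose median was 0.162 (0.146 over all genes and loci tested). Its level, and with it the slope and variation, moves with this exon. Kdr had 21 to 60 reads in the 6 libraries with the exon at 0 and 101 to 173 in the other 6. A left-out assembled transcript next to the RefSeq transcript had 18 to 35 and 11 to 29 reads in the same libraries. It lies inside the span that GENCODE gives Kdr (chr5:75932827-75978458). Whether the assembler gave reads of the last exon to this transcript or to another locus was not tested.

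**Figure D2:**
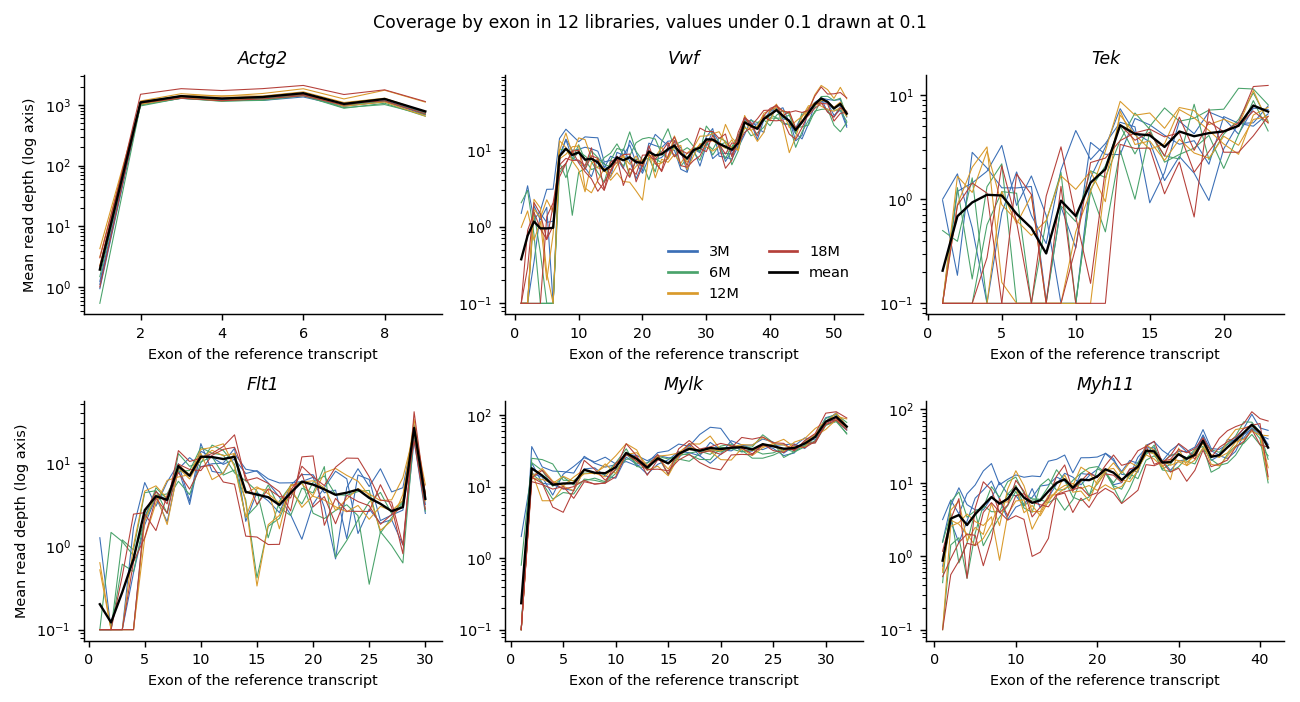
Mean read depth per base on a log axis by exon of the RefSeq transcript for Actg2, Vwf, Tek, Flt1, Mylk and Myh11, with 1 thin line per mouse colored by age and the mean of 12 libraries in black. Actg2 steps up by the second exon, Vwf at exon 7 and Tek at exon 13, in mice of every age.

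Over all genes the reads leaned toward the 3′ end. The ratio of the depth on the 5′ part of the exons to that on the 3′ part had a median of 0.839 over 14955 genes. By library this median was 0.859 to 0.938 in 3M mice, 0.814 to 0.914 in 6M mice, 0.715 to 0.910 in 12M mice and 0.755 to 0.880 in 18M mice. Among the members Tek (0.151), Kdr (0.226), Rgs5 (0.231), Myh11 (0.261) and Pdgfrb (0.263) had the lowest ratios, and Tpm2 (8.26) and Acta2 (4.26) had the highest.

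Smooth muscle genes are classic targets of serum response factor, which binds the CArG box, a 10-base element. Promoter sequences of RefSeq (GRCm38.p6) were matched for 22 of the 32 members, without Myh11, Tagln and Actg2 among the myoid genes. The 250 bases before the start were searched on both strands for the exact form CC, then only A or T, then GG. Elements with another base in the middle were not counted. Of 8 myoid genes with a promoter, 1 held the exact form in this window. None of the 14 other members did, and 1.47% of all promoters in that table did. The match was in Myl9, whose window is printed because it is the only one with the exact form, which stands in capitals.
Myl9, chr2:156775214-156775463, plus strand: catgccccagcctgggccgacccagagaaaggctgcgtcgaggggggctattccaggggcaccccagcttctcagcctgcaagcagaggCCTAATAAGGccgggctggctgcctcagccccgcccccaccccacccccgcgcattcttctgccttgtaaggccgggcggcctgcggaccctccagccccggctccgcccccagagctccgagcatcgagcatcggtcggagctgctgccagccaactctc
A match in this window is a description, and its absence in the others says nothing of the factor.

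Most members had lower counts in older testes, but by small amounts and none past the threshold by edgeR. Over all 12 libraries the slope on age was below 0 in 27 of 32 members, against 49.4% of the 25204 genes and loci tested. The median slope of the members was -0.0093 log2 per month, beside 0.00017 over everything tested. It was below 0 for 10 of 11 myoid, 11 of 12 endothelial, 2 of 4 mural and 4 of 5 stromal genes. The 27 became 19 without 18M mouse 2 and 22 without 3M mouse 2, and was 27 without 18M mouse 1.

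By edgeR's quasi-likelihood test with Benjamini-Hochberg adjustment, 0 of 32 members had a slope at an adjusted p of 0.05 or less, where 0.171% of all genes and loci did. At an unadjusted p of 0.05 or less there were 8 members, a share of 25% against 15.4% of all. Pdgfra, Cd34, Dcn, Pecam1, Cdh5, Tpm1 and Mylk were lower with age (21.9% against 8.2%) and Pdgfrb was higher (3.12% against 7.16%). DESeq2 called 2 members, Pdgfra and Cd34, among 559 calls in a series of 31513 genes and loci. It was run without the filter on low counts that edgeR used. The count of 8 was 4 without 3M mouse 2, 5 without 6M mouse 2, 5 without 18M mouse 2 and 12 without 18M mouse 1.

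**Figure D3:**
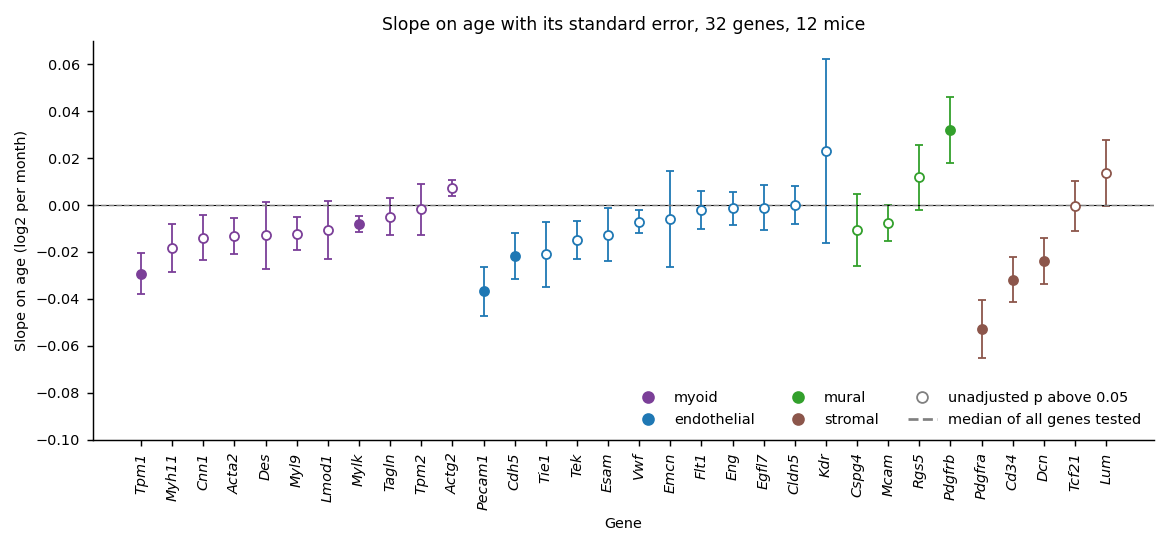
Slope on age in log2 per month (point) with its standard error (bar) for each of the 32 genes, colored by group, filled where the unadjusted p was 0.05 or less. The dashed line is the median over all genes and loci tested, at 0.00017, and Pdgfra lies lowest at -0.053.

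Among the stromal genes, Pdgfra had the steepest slope of all members. Pdgfra (chr5:75152251-75198206, mm10, plus strand) encodes a receptor for platelet-derived growth factor that marks interstitial stroma and Leydig cell precursors. Pdgfra was at 9.26, 11.8 and 8.72 CPM in the 3M mice, 8.28, 9.94 and 9.104 in the 6M mice, 5.74, 6.41 and 5.58 in the 12M mice, and 8.08, 4.67 and 5.41 in the 18M mice. Values here and below stand in the order of mouse numbers, and CPM is a level per library, not per length. Every 12M mouse and every 18M mouse was below every 3M mouse, and every 12M mouse was below every 6M mouse, with 18M mouse 1 close to the younger animals. The slope was -0.053 ± 0.012 log2 per month (SE), with an edgeR adjusted p of 0.125. Over left-out libraries it ran from -0.071 without 18M mouse 1 (edgeR adjusted p = 0.0106) to -0.047 without 3M mouse 2. Only the fit without 18M mouse 1 passed the threshold. DESeq2 gave -0.053 ± 0.012 with an adjusted p of 0.00298.

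Cd34 encodes a surface sialomucin carried by stromal cells and also by capillary endothelium. Cd34 was at 8.24, 8.67 and 7.66 CPM in the 3M mice, 8.97, 9.75 and 8.01 in the 6M mice, 6.64, 5.91 and 6.37 in the 12M mice, and 7.796, 6.15 and 5.31 in the 18M mice. The 12M values all lay below the 6M values, whereas 1 of 3 mice at 18M lay within the 3M range. Its slope was -0.032 ± 0.0096 log2 per month, with an adjusted p of 0.182 by edgeR and 0.0460 by DESeq2.

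Dcn was at 19.6, 22.96 and 15.2 CPM in the 3M mice, 18.5, 22.03 and 19.3 in the 6M mice, 16.3, 18.2 and 14.9 in the 12M mice, and 19.2, 14.2 and 13.5 in the 18M mice. The 12M mice were all below the 6M mice, and the 3M mice spread over most of the range. The slope of Dcn was -0.024 ± 0.0098 log2 per month (edgeR adjusted p = 0.281). Tcf21, a transcription factor of interstitial progenitors, had a slope of -0.00026 ± 0.011. Lum, a collagen-binding proteoglycan like Dcn, had 0.014 ± 0.014, and neither passed a threshold.

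Pecam1 and Cdh5 had the endothelial slopes with the smallest p. Pecam1 was at 3.09, 2.97 and 2.38 CPM in the 3M mice, 2.799, 2.22 and 2.51 in the 6M mice, 1.63, 2.41 and 1.94 in the 12M mice, and 1.93, 2.23 and 1.68 in the 18M mice. For Pecam1 no 18M mouse reached the lowest 3M mouse, and 12M mouse 1 was the lowest of the 12. Its slope was -0.037 ± 0.010 log2 per month, with an edgeR adjusted p of 0.167. Cdh5 was at 5.48, 6.44 and 5.003 CPM in the 3M mice, 6.35, 5.45 and 5.04 in the 6M mice, 5.71, 4.896 and 3.89 in the 12M mice, and 5.46, 3.95 and 4.41 in the 18M mice. Its ages overlapped throughout, with a slope of -0.022 ± 0.0098 and an edgeR adjusted p of 0.318.

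Tek was at 2.996, 3.11 and 2.92 CPM in the 3M mice, 2.503, 2.52 and 3.37 in the 6M mice, 2.91, 2.803 and 2.61 in the 12M mice, and 2.48, 2.18 and 2.89 in the 18M mice. All 3 of the 18M mice were below the 3M mice for Tek, by little, and the 6M mice spanned both. The slope was -0.015 ± 0.0082 log2 per month (edgeR adjusted p = 0.396). The other 9 endothelial genes ran from -0.021 ± 0.014 for Tie1, the partner receptor of Tek, to 0.023 ± 0.039 for Kdr. Cldn5, the claudin of endothelial tight junctions, had -7.9e-05 ± 0.0082, and Eng, a co-receptor for transforming growth factor β, had -0.0014 ± 0.0070, both far smaller than the slopes of Pecam1 and Cdh5. Those differences between genes were not tested.

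In the myoid group, Tpm1 and Mylk had the smallest p of the slope. Tpm1 was at 17.7, 19.9 and 16.1 CPM in the 3M mice, 14.7, 15.1 and 19.7 in the 6M mice, 14.2, 14.04 and 11.8 in the 12M mice, and 15.7, 11.5 and 13.2 in the 18M mice. The 18M mice were all below the 3M mice for Tpm1, and the 12M mice were all below the 6M mice. Its slope was -0.029 ± 0.0089 log2 per month, with an edgeR adjusted p of 0.186. Mylk was at 61.4, 65.2 and 57.5 CPM in the 3M mice, 59.8, 59.3 and 59.4 in the 6M mice, 57.3, 61.6 and 60.8 in the 12M mice, and 58.2, 54.5 and 54.4 in the 18M mice. The 2 lowest values were those of 18M mice 2 and 3, in an otherwise narrow range. The slope of Mylk was -0.0080 ± 0.0033 log2 per month, with an edgeR adjusted p of 0.281.

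Acta2 was at 36.4, 38.6 and 34.8 CPM in the 3M mice, 28.2, 31.8 and 39.5 in the 6M mice, 29.5, 32.5 and 30.3 in the 12M mice, and 36.6, 27.03 and 31.5 in the 18M mice. The 3M mice lay in the upper part, but 6M mouse 3 was higher than any of them and 18M mouse 1 was inside their range. The slope of Acta2 was -0.013 ± 0.0077 log2 per month (edgeR adjusted p = 0.432). Myh11 was at 25.1, 31.5 and 23.6 CPM in the 3M mice, 20.97, 19.8 and 20.5 in the 6M mice, 20.4, 20.7 and 17.4 in the 12M mice, and 23.4, 16.9 and 23.1 in the 18M mice. Myh11 was higher in every 3M mouse than in any older mouse, and the later 3 ages overlapped. Its slope was -0.018 ± 0.010 (edgeR adjusted p = 0.411).

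Actg2 was at 267, 235 and 246 CPM in the 3M mice, 256, 262 and 249 in the 6M mice, 258, 256 and 282 in the 12M mice, and 255, 266 and 283 in the 18M mice. Actg2 was the only myoid gene with a slope above 0, at 0.0071 ± 0.0034 log2 per month (edgeR adjusted p = 0.343). The 18M mice overlapped with the 3M mice. With Actg2 left out, the other 10 myoid genes summed to 208 ± 13 CPM in 3M mice, 197 ± 21 in 6M mice, 186 ± 4.1 in 12M mice and 183 ± 19 in 18M mice. With it, the sum was 457 ± 17 CPM at 3M and 451 ± 18 at 18M, and Actg2 alone made up more of the sum than the other 10 genes.

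**Figure D4:**
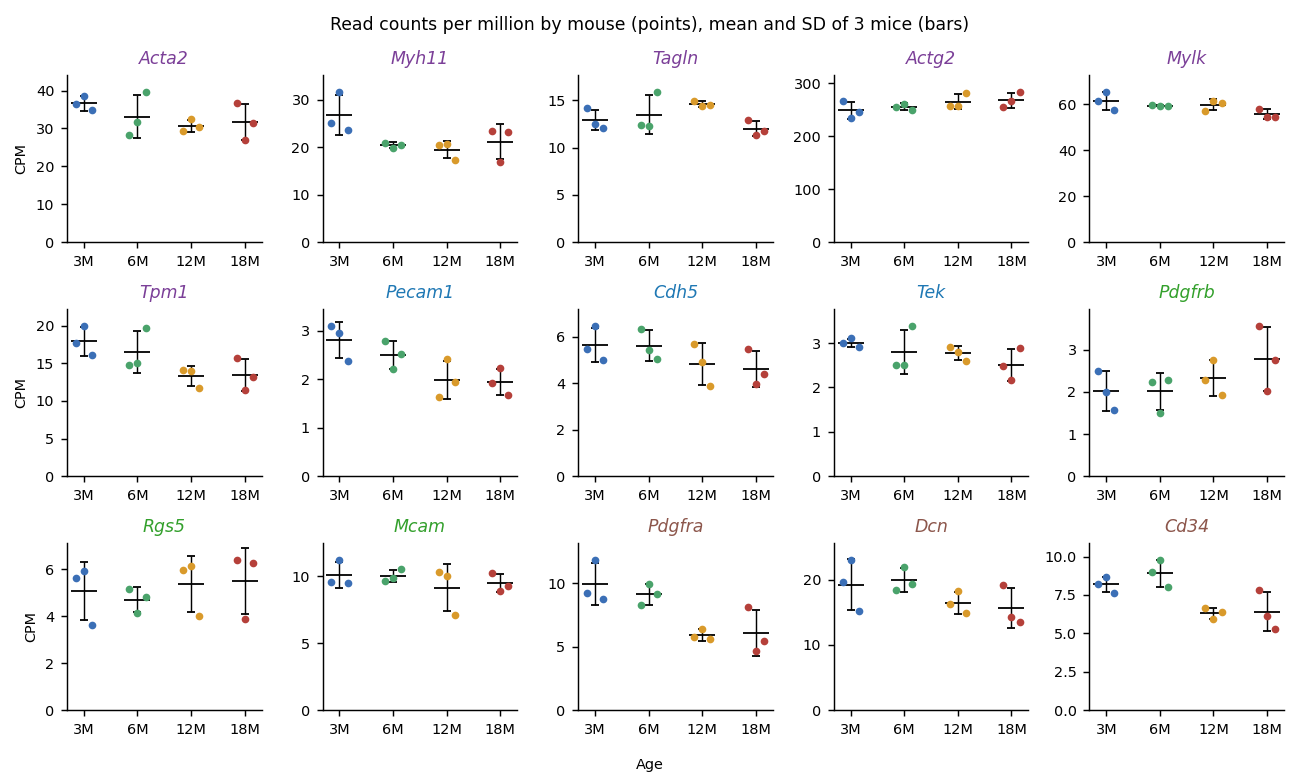
CPM (vertical axis, from 0) by age for the 15 members given mouse by mouse, with 1 point per mouse and bars for the mean and SD of 3 mice, titles colored by group. Pdgfra and Cd34 are lower in the 12M than in the 6M mice without overlap, while Actg2 and Mylk vary little.

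Of the mural genes, Pdgfrb, the receptor through which platelet-derived growth factor recruits pericytes, was the only member with a positive slope at an unadjusted p of 0.05 or less. Pdgfrb was at 2.5, 2.001 and 1.56 CPM in the 3M mice, 2.25, 1.51 and 2.28 in the 6M mice, 2.29, 2.77 and 1.93 in the 12M mice, and 3.55, 2.02 and 2.75 in the 18M mice. The highest value was that of 18M mouse 1, and the other 18M mice were within the range of the younger ages. The slope was 0.032 ± 0.014 log2 per month, with an edgeR adjusted p of 0.306.

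Rgs5 was at 5.63, 5.92 and 3.63 CPM in the 3M mice, 5.16, 4.14 and 4.798 in the 6M mice, 5.98, 6.13 and 4.01 in the 12M mice, and 6.36, 3.88 and 6.26 in the 18M mice. Rgs5, a regulator of G-protein signaling in pericytes, varied more between mice of an age than between ages. Its slope was 0.012 ± 0.014 log2 per month. Mcam was at 9.599, 11.2 and 9.49 CPM in the 3M mice, 9.64, 9.87 and 10.5 in the 6M mice, 10.3, 10.02 and 7.14 in the 12M mice, and 10.2, 8.91 and 9.29 in the 18M mice. The ages overlapped for Mcam, an adhesion molecule of mural and endothelial cells, whose slope was -0.0076 ± 0.0077. Cspg4, the NG2 proteoglycan, had -0.011 ± 0.015. The edgeR adjusted p was 0.720 for Rgs5, 0.675 for Mcam and 0.784 for Cspg4.

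A test for any difference between the 4 ages, which does not assume a straight line, called 0 of 32 members and 0.0794% of all genes and loci (edgeR's quasi-likelihood test with Benjamini-Hochberg adjustment). At an unadjusted p of 0.05 or less it held Pdgfra, Cd34, Pecam1, Myh11 and Tpm1, 5 of 32 members (15.6%) beside 9.04% of all. DESeq2 called Pdgfra and Cd34 among 378 calls in the series of 31513 genes and loci. The count of 5 was 2 without 3M mouse 2 or without 12M mouse 3, and 3 without 3M mouse 1 or without 18M mouse 3.

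Between the youngest and the oldest mice, edgeR's quasi-likelihood test called 0 of 32 members and 0.065% of all 24605 genes and loci, and DESeq2 called 0 members. The values of both ages did not overlap for Myh11, Tpm1, Pecam1, Tek and Pdgfra, 5 members that were all lower at 18M. That is a share of 15.6%, beside 19.4% of everything tested in either direction and 10.2% in the lower direction. The log2 fold changes from 3M to 18M were -0.71 ± 0.22 (SE) for Pdgfra, -0.53 ± 0.16 for Pecam1 and -0.41 ± 0.13 for Tpm1, with edgeR adjusted p of 0.358, 0.354 and 0.365.

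These were the 3 members (9.38%) at an unadjusted p of 0.05 or less, beside 12% of all. The count was 1 without 3M mouse 2, 7 without 3M mouse 3 and 8 without 18M mouse 1. In all, 25 of 32 members were below 0, against 48.6% of all genes and loci tested. Their median was -0.11 on the log2 scale, beside 0.0063 over everything tested. Without 18M mouse 2 there were 18 below 0.

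The step from 6M to 12M was compared next, and here the members with the smallest p were stromal genes. Here 0 of 32 members were called by edgeR's quasi-likelihood test, beside 0.0407% of all, and 3 had an unadjusted p of 0.05 or less (9.38% beside 7.49%). The log2 fold changes from 6M to 12M were -0.62 ± 0.11 (SE) for Pdgfra, -0.50 ± 0.11 for Cd34 and -0.28 ± 0.11 for Dcn. The edgeR adjusted p were 0.384, 0.597 and 0.666. DESeq2 called Pdgfra at an adjusted p of 0.00420, among 125 calls in the series of 31513 genes and loci. Pdgfra, Cd34, Dcn and Tpm1 were the 4 members without overlap (12.5% beside 14.9%). The count of 3 was 6 without 6M mouse 1 and 2 without 6M mouse 2.

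From 3M to 6M edgeR's quasi-likelihood test called 0 of 32 members, beside 0.0733% of all, and DESeq2 called none. Myh11, at -0.39 ± 0.12 on the log2 scale (edgeR adjusted p = 0.990), was the 1 member at an unadjusted p of 0.05 or less (3.12% beside 3.94%) and the 1 without overlap (3.12% beside 9.47%). The count was 2 without 6M mouse 3.

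From 12M to 18M edgeR's quasi-likelihood test called 0 of 32 members, beside 0.0203% of all, and DESeq2 called none. Tagln was at 14.2, 12.5 and 12.1 CPM in the 3M mice, 12.4, 12.2 and 15.8 in the 6M mice, 14.98, 14.4 and 14.6 in the 12M mice, and 12.9, 11.4 and 11.8 in the 18M mice. Tagln, the actin-binding protein transgelin, was lower in every 18M mouse than in any 12M mouse, at a log2 fold change of -0.28 ± 0.076 (edgeR adjusted p = 0.99997). It was the 1 member at an unadjusted p of 0.05 or less (3.12% beside 3.57%) and the 1 without overlap (3.12% beside 9.02%), and the count was 2 without 12M mouse 3 and 3 without 18M mouse 2. Pdgfra was at 5.91 ± 0.44 CPM at 12M and 6.05 ± 1.8 at 18M, and Cd34 at 6.30 ± 0.37 and 6.42 ± 1.3 CPM (mean ± SD, n = 3 mice).

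Genes that act with the members were read in the same fit of the slope, where 0.171% of all genes and loci were called and, at an unadjusted p of 0.05 or less, 8.2% were lower and 7.16% higher with age. Of 16 ligands, receptors and transcription factors of the VEGF, angiopoietin and Notch pathways, 0 were called by edgeR at an adjusted p of 0.05 or less. At an unadjusted p of 0.05 or less, 2 were lower and 1 higher. The lower pair was Nrp1, a co-receptor that binds VEGF-A with Kdr, at -0.049 ± 0.012 log2 per month, and Notch1 at -0.018 ± 0.0065 (edgeR adjusted p = 0.137 and 0.229). Nrp1 was at 3.63, 3.704 and 3.25 CPM in the 3M mice, 2.897, 2.81 and 3.22 in the 6M mice, 1.71, 2.58 and 2.13 in the 12M mice, and 2.67, 2.25 and 1.599 in the 18M mice. Every 12M and 18M mouse was below every 6M mouse for Nrp1, and every 6M mouse was below every 3M mouse.

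The 4 ligands of the receptors Pdgfra and Pdgfrb showed no such slope: 0 passed either threshold, and Pdgfb had 0.0074 ± 0.010 and Pdgfd -0.0043 ± 0.011 log2 per month. Of 15 genes of the smooth muscle program outside the members, 0 were called and 4 were lower at an unadjusted p of 0.05 or less, beside 8.2% of all. Smtn, the actin-binding smoothelin, was at -0.023 ± 0.0065 and Ppp1r12a, the targeting subunit of myosin phosphatase, at -0.012 ± 0.0041 log2 per month (edgeR adjusted p = 0.174 and 0.230). Of 6 receptors for hormones that act on myoid cells, 0 were called and 2 were lower at that threshold, Oxtr and Ednra, the receptors for oxytocin and endothelin. Oxtr was at 3.91, 4.3004 and 3.93 CPM in the 3M mice, 6.72, 5.71 and 6.08 in the 6M mice, 2.61, 3.27 and 3.82 in the 12M mice, and 3.71, 2.44 and 2.06 in the 18M mice. The 3 mice at 6M were the highest and did not overlap with any other age, and the slope was -0.062 ± 0.019 (edgeR adjusted p = 0.190).

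Leydig cells, the androgen-making cells of the interstitium, were read by their own list in the same mice. The 7 Leydig cell genes summed to 938 ± 93 CPM in 3M mice, 1015 ± 270 in 6M mice, 661 ± 36 in 12M mice and 636 ± 111 in 18M mice. Their steroidogenic genes Cyp11a1 and Cyp17a1 fell with age, at -0.11 ± 0.013 and -0.099 ± 0.0078 log2 per month (edgeR adjusted p = 0.00530 and 0.000125). Of the 7 genes, 6 had a lower slope at an unadjusted p of 0.05 or less by edgeR, beside 8.2% of all genes and loci. The 5 stromal genes summed to 40.2 ± 6.0, 41.01 ± 3.0, 31.5 ± 1.8 and 31.2 ± 6.4 CPM at the same ages. Both sums were lower in every 12M mouse than in any 6M mouse, and the part of Leydig cells in the values of Pdgfra was not tested. The 8 macrophage genes summed to 65.8 ± 2.4, 73.3 ± 7.2, 58.2 ± 7.5 and 59.8 ± 8.7 CPM and were likewise lower in every 12M mouse (49.98 to 64.7 CPM) than in any 6M mouse (65.4 to 79.5 CPM). All 8 were below 0 from 6M to 12M, beside 50.8% of all genes and loci tested. Of the 8, 2 were lower at an unadjusted p of 0.05 or less by edgeR, beside 3.95% of all. The 4 mesothelial genes, at 2.67 to 3.90 CPM in sum at 6M and 12M, did not overlap between these ages either. That sum was almost all Lrrn4, at a mean of 2.98 CPM over 12 libraries. Msln, Upk3b and Krt19 had means of 0.0084, 0.042 and 0.145 CPM. The part of macrophages and mesothelial cells in the stromal values was not tested.

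**Figure D5:**
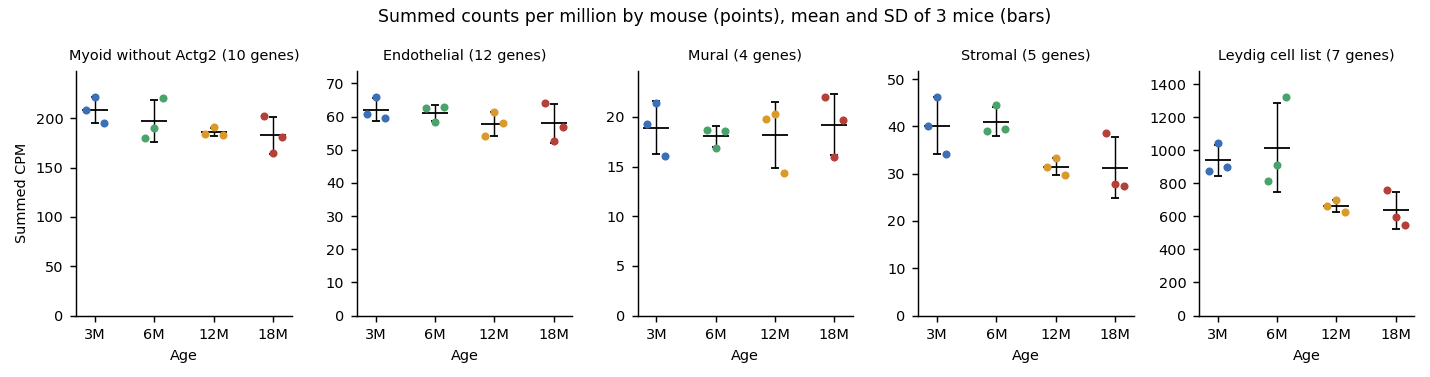
Summed CPM (vertical axis, from 0) by age of the 10 myoid genes without Actg2, the endothelial, mural and stromal genes and 7 Leydig cell genes, with 1 point per mouse and bars for the mean and SD of 3 mice. The stromal and Leydig sums step down between 6M and 12M, and 18M mouse 1 is the highest 18M mouse in every panel.

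The 12 endothelial genes summed to 62.1 ± 3.4 CPM in 3M mice, 61.2 ± 2.4 in 6M mice, 57.8 ± 3.7 in 12M mice and 57.9 ± 5.8 in 18M mice, and the 4 mural genes to 18.9 ± 2.7, 18.0 ± 1.1, 18.2 ± 3.3 and 19.2 ± 3.1 CPM. Both sums overlapped between all ages. Vwf held the largest part of the endothelial sum, at 21.5 ± 1.3, 22.1 ± 1.1, 20.9 ± 2.4 and 20.3 ± 0.83 CPM at the same ages. The 9 Sertoli cell genes summed to 867 ± 4.1 CPM at 3M and 845 ± 21 at 18M.

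Single mice held the extreme value of many members. 18M mouse 2 was the lowest library for 13 of the 32 members, 3M mouse 2 the highest for 12 and 18M mouse 1 the highest for 9. How often these mice were extreme over all genes and loci was not counted. Among the Leydig genes, too, 3M mouse 2 was the highest 3M mouse and 18M mouse 1 the highest 18M mouse by their sum. The spermatid genes summed highest in 12M mouse 3 and 18M mouse 3, at 19236 and 17588 CPM. Whether these mice differed in the share of interstitium in the sequenced tissue was not tested.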

How the data were processed

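Testis RNA of 12 mice was depleted of ribosomal RNA, made into TruSeq v2 libraries without strand information and sequenced from both ends. Alignment by the authors was to mm10 with HISAT2, and StringTie 1.3.3b then built transcripts per library, merged them and estimated their abundance. The deposited read counts are estimated counts per transcript, made by the authors from mean coverage and rounded up to whole numbers. The deposited FPKM are the authors' values per transcript, with no normalization between libraries. Exon read depth comes from the deposited assembly of each library. Reads of overlapping genes on opposite strands cannot be told apart.

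Counts were summed per gene over transcripts of class =, c, j or o and taken per library from its labelled age and mouse number. There were 0 columns of values without a sample. The gene sums went into the quasi-likelihood test of edgeR 4.0.16 (R 4.3.3) after filterByExpr and TMM scaling, with Benjamini-Hochberg adjustment over all genes and loci and calls at an adjusted p of 0.05 or less. The slope on age in months and the test for any difference used all 12 libraries, and pairwise fits used the 6 libraries of both ages. The study compared successive ages by fold change of FPKM and chose transcripts that differed between 3M and 18M with DESeq2. TMM factors were 0.983 to 1.02. The tests were tested on simulated data with known changes. DESeq2 1.42.0, other normalizations, filters and transcript classes, the mouse number as a block, and each library left out in turn were alternatives. Figures and sums used Python 3.11.15, pandas 2.3.3, numpy 2.4.6 and matplotlib 3.10.9, and sequences were aligned with Biopython 1.88.

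The members and all gene lists were chosen with earlier results of these data known, so their counts are descriptions. Given mouse by mouse are the members called in any fit, the 3 of each group with the smallest p of the slope and the markers Acta2, Myh11, Pecam1, Cdh5, Pdgfra, Pdgfrb and Dcn. Tagln, Vwf, Flt1 and Kdr were added after their values were seen. Of each list of other genes of a pathway, the called genes or else the 2 with the smallest p are named. Each mouse is 1 replicate, and 50924104 to 71803379 reads per library, with 368 reads for the lowest member over all libraries, set the precision.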

Additional observations from a re-analysis of the deposited data

Results flagged for a closer look

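Reads on 4 assembled transcripts that carry a member's symbol were left out of every comparison above. This was because each lies inside an intron of the RefSeq transcript or next to it, without overlapping its exons on the same strand. They were looked at because they hold reads that no comparison used. Inside Flt1, a transcript of 1605 nt at chr5:147659888-147671136 (mm10) held 1836 reads, with 107 to 210 in each of the 12 libraries. Inside Vwf, one of 978 nt at chr6:125583402-125586311 held 714 reads, with 33 to 118 per library, and it overlaps the place where the shorter Vwf transcript begins. Next to the RefSeq transcript of Kdr, one of 416 nt at chr5:75932835-75933250 held 253 reads, with 11 to 35 per library. It lies inside the GENCODE span of Kdr (chr5:75932827-75978458).

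Next to Mcam, a transcript of 4855 nt at chr9:44144405-44149259 held 947 reads, but its libraries ran from 0 to 839, so 1 mouse held most of them. Adding all 4 transcripts to their genes left 0 of 32 members called in each fit.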

How the results depend on the processing

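The result that 0 of 32 members were called by edgeR held in every comparison under DESeq2's size factors, library size alone, both other filters on low counts, all transcript classes, exact RefSeq transcripts alone (for the members tested), all 12 libraries in a pairwise fit and an added log2 change of 1 or more. It did not hold under DESeq2, which called 2 members in the slope, 2 in the test for any difference (Pdgfra and Cd34 in both) and 1 from 6M to 12M (Pdgfra). An unadjusted p of 0.05 or less gave 8 members for the slope, 5 for any difference, 3 for 3M against 18M, 1 for 3M against 6M, 3 for 6M against 12M and 1 for 12M against 18M. Of those counts, that of the slope became 5 with exact RefSeq transcripts alone, and that of 3M against 18M became 6 with all 12 libraries in the fit and 5 with DESeq2. The cause was not tested.

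Leaving out 1 library gave 0 to 1 called members for the slope (1, Pdgfra, without 18M mouse 1) and 0 in each other comparison. At an unadjusted p of 0.05 or less the range was 4 to 12 for the slope, 2 to 7 for any difference, 1 to 8 for 3M against 18M, 1 to 2 for 3M against 6M, 2 to 6 for 6M against 12M and 1 to 3 for 12M against 18M. The change of Rgs5 from 3M to 18M turned to -0.065 without 3M mouse 3 and was 0.32 without 18M mouse 2, the range over left-out libraries. Of the values of named members, 833 kept their direction and side of the threshold or moved by less than their spread, 4 passed the threshold and 1 turned. With exact RefSeq transcripts alone, Mylk was not tested in any comparison and Vwf not from 6M to 12M, since they did not pass the filter on low counts, so that 31 and 30 members were tested. Myh11 went from -0.33 to -1.52 for 3M against 18M there, Acta2 from -0.20 to -0.74 and Tagln from -0.28 to -0.52 for 12M against 18M, none of them called.

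With the mouse number as a replicate block, 0 members were called and the count for any difference at an unadjusted p of 0.05 or less went from 5 to 3. The numbers did not pair the mice: over 18 same-number pairs of different ages the deviations from the age means correlated at -0.0384 to 0.07, and 6 of 12 samples correlated best with their own number. Over all genes and loci the calls went from 43 to 22 under the block for the slope, from 16 to 0 for 3M against 18M, from 18 to 2 for 3M against 6M, from 10 to 2 for 6M against 12M and from 5 to 3 for 12M against 18M. DESeq2 called 559, 378, 298, 110, 125 and 55 where edgeR called 43, 20, 16, 18, 10 and 5 (slope, any difference, 3M against 18M, then the 3 steps). With exact RefSeq transcripts alone edgeR called 9 for the slope, 40 for 3M against 18M and 17 for 6M against 12M. With all 12 libraries it called 6 for 3M against 6M and 1 for 12M against 18M.

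Depth was lowest for Emcn, Lum, Cspg4, Kdr and Tcf21, with 368 to 1200 reads each over 12 libraries.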
